A study of Mus musculus with 8 samples.

Results

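Eukaryotic translation initiation factors bring the ribosome to an mRNA and place it on the start codon. Their genes were followed here in inflamed and control mouse colon. Members were all genes whose symbol begins with Eif and a digit between 1 and 6, and each gene's probe set was chosen by its mean log2 value over all 8 arrays, the brightest being kept. Of 30672 named genes, 55 were members. A role in initiation or its control was assigned to 46 of them, and the other 9 were pseudogenes, retrocopies and Eif2c5, an old Argonaute symbol that the annotation gives as a long non-coding RNA. The family was proposed with results of these data in view, so counts over it are descriptions.

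Colon tissue came from 3 mice injected with naïve T cells and killed with severe inflammation, and from 5 control mice injected with regulatory T cells (Tregs). All 8 were Rag1-/- on the C57BL/6 background. Without Rag1, T and B cells do not mature, so the injected cells are the source of T cells, while innate cells are the host's. Injection was at 10 weeks of age and death 2 to 4 months later, per the labels' protocols, whereas the labelled age is 4 to 5 months. The sources also differ on the region, naming distal colon in one place and a strip along the whole length in another. Each array was read as 1 mouse, since the replicates are labelled as biological. Values are deposited log2 intensities per probe set from Affymetrix arrays, array medians lay between 4.81 and 4.91, and the files give no detection calls.

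Initiation begins when eIF2, bound to GTP and the initiator tRNA, joins the small ribosomal subunit together with eIF1, eIF1A, eIF5 and the large scaffold eIF3. The mRNA cap is bound by eIF4E, which with the scaffold eIF4G and the helicase eIF4A forms the eIF4F complex, and the eIF4E-binding proteins (4E-BPs) block that assembly until mTORC1, a growth-factor and nutrient kinase, phosphorylates them. After each round eIF2 has to be recharged with GTP by the exchange factor eIF2B. Stress kinases phosphorylate the alpha subunit of eIF2, which blocks eIF2B and lowers general translation while some mRNAs, Atf4 among them, are translated more. In the gut, dividing crypt cells, mucus-secreting cells and activated leukocytes are known for heavy protein synthesis.

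Of the 55 members, 17 were higher and 2 lower in inflamed colon at an adjusted p under 0.05 (limma across all 30672 genes, Benjamini-Hochberg). Of all genes, 13.1% passed this test, 8.08% with higher and 5.04% with lower values in inflamed colon. Many array genes are dim. Among the genes above the dim limit, a log2 value of 4.88 set by the mean of the array medians, in at least 1 group, 19.5% passed and 12% passed with higher values. No filter was applied to the members, all 55 were tested, and only Eif2c5 lay below the limit in both groups. The limit does not mark detection, since the median of the negative control probe sets was 4.92 to 5.11 by array. Their 75th percentile was 6.13 to 6.33. Eif4e1b and Eif5a2 lay below it on every array, and Eif4a3l2 on every control array and on inflamed array 2. In 24 members the 3 inflamed values lay outside the range of the 5 controls, which was the case for 21.2% of all genes. The rule used this contrast, so nothing is read from these shares. The median member differed by 0.15 on the log2 scale, against -0.01 for the median gene, and 44 of 55 differences were positive. Most changes were small, and Eif4e3 was the only called member past 2-fold. Eif2s3y, whose values follow sex as described below, differed by 1.24 without passing (limma adjusted p = 0.561).

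**Figure D1:**
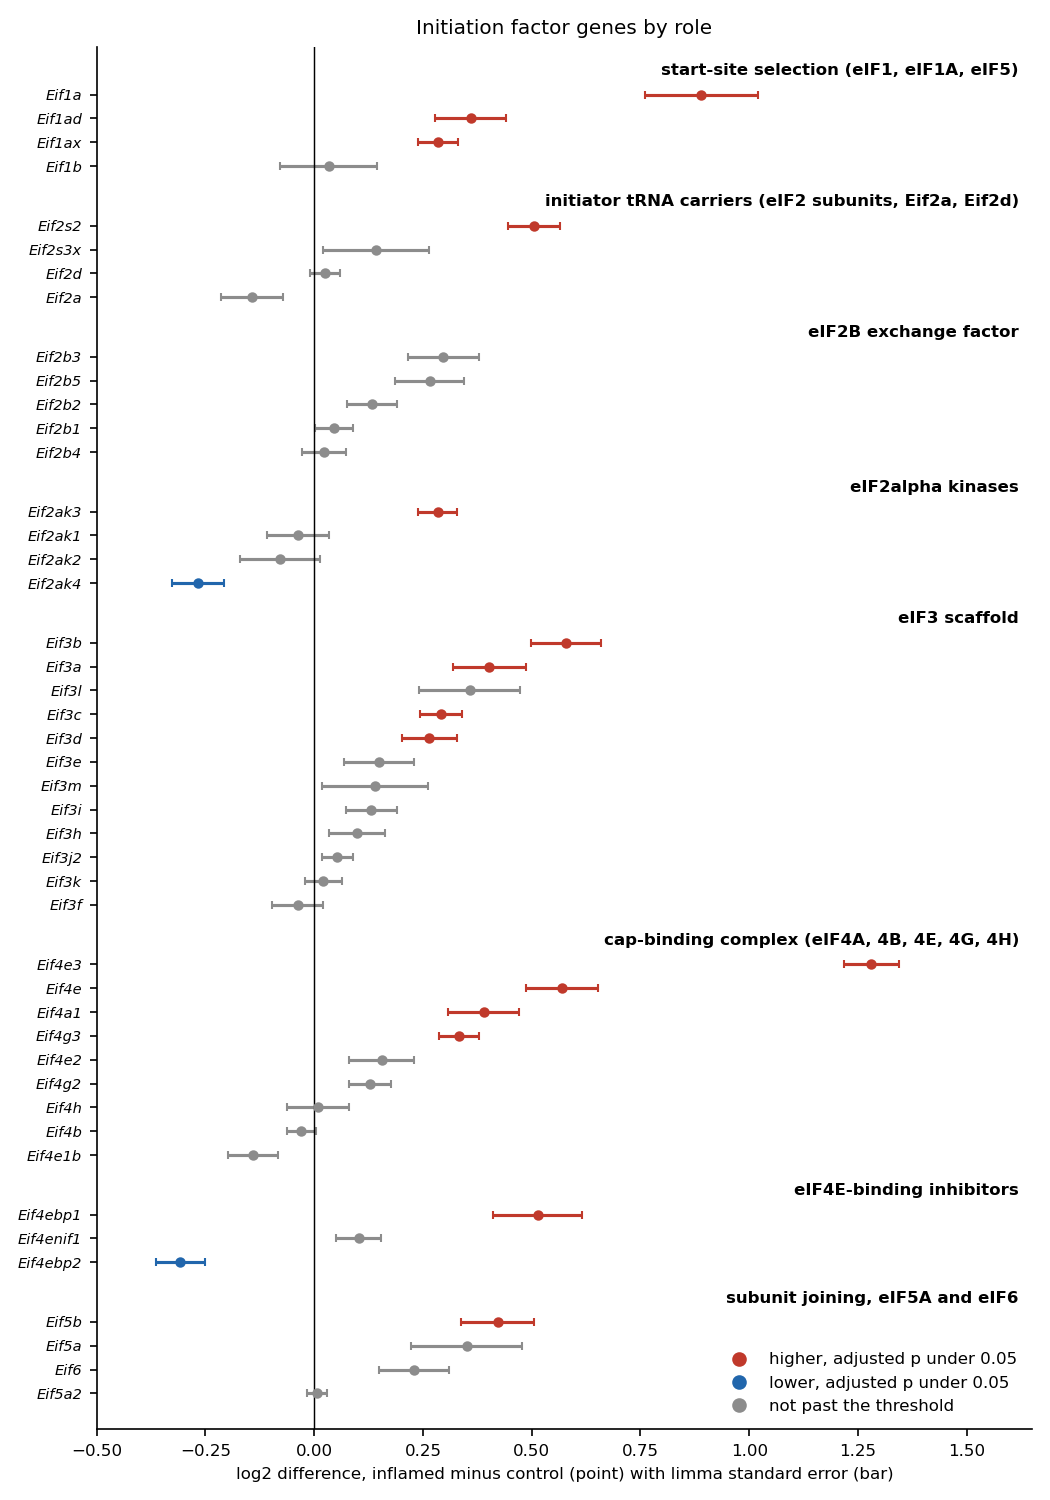
Log2 difference, inflamed minus control (horizontal axis), of 45 members grouped by role. Points are differences and bars limma standard errors, with colours marking an adjusted p under 0.05. Eif2s3y is left out because its spread follows sex. Eif4e3 stands farthest to the right at 1.28, and Eif2ak4 and Eif4ebp2 are the members past the threshold to the left of 0.

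The tissue differed in its cells as well. All 10 monocyte and macrophage markers, 7 of 8 T cell markers, 5 of 10 neutrophil markers and 7 of 9 markers of dividing cells were higher in inflamed colon. Of the 8 smooth muscle markers, 6 were lower. The mean log2 value over the macrophage markers lay between 7.79 and 8.13 on the inflamed arrays, against 6.34 to 6.54 on the controls. Over the T cell markers it lay between 6.11 and 6.74 in inflamed colon and 5.00 to 5.13 in controls, and over the neutrophil markers between 6.81 and 8.09 in inflamed colon and 5.30 to 5.52 in controls. Over the markers of dividing cells it lay between 8.27 and 8.35 in inflamed colon and 7.37 to 7.89 in controls. Over the smooth muscle markers it lay between 9.68 and 9.75 in inflamed colon and 10.13 to 10.57 in controls. The 11 epithelial markers, whose mean lay between 11.69 and 11.86 in inflamed colon and 11.74 to 11.89 in controls, included 1 that was higher and 2 that were lower. Of these marker lists, 1 T cell and 1 neutrophil gene lay below the dim limit in inflamed colon, against 2 T cell, 4 neutrophil and 1 macrophage gene in controls. In whole tissue, fewer cells of a type and less RNA per cell cannot be told apart, and the part of these cells in the differences below was not tested.

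The cap-binding complex held the largest change. Of its 9 measured genes, Eif4e3, Eif4e, Eif4a1 and Eif4g3 were higher in inflamed colon and none was lower. Eif4e3, a relative of eIF4E that binds the cap in a different way, had log2 values of 8.74, 8.64 and 8.73 in inflamed colon, against 7.60, 7.38, 7.39, 7.33 and 7.42 in controls. The gap between the groups was several times the spread within either. The difference was 1.28 ± 0.06 (SE, n = 3 and 5), a 2.43-fold higher level with a 95% interval of 1.13 to 1.43 on the log2 scale and a limma adjusted p of 0.000107.

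Eif4e encodes the cap-binding protein itself, the factor on which growth signals converge. It had 9.20, 9.42 and 9.06 in inflamed colon, against 8.72, 8.70, 8.71, 8.55 and 8.60 in controls, a 1.48-fold higher level (log2 difference 0.57 ± 0.08, SE, limma adjusted p = 0.00537). Every inflamed array lay above every control array. Eif4a1, the helicase that unwinds leaders, had 9.96, 9.81 and 9.81 in inflamed colon, against 9.56, 9.54, 9.55, 9.46 and 9.24 in controls. It was 1.31-fold higher (log2 difference 0.39 ± 0.08, SE, limma adjusted p = 0.0211), and the groups did not overlap. Its call was lost without inflamed mouse 1 (adjusted p = 0.0789) and without control mouse 4 (0.0528). Eif4g3, a scaffold that joins the cap-binding protein to the helicase, had 8.47, 8.44 and 8.36 in inflamed colon, against 8.10, 8.05, 8.02, 8.19 and 8.08 in controls. It was 1.26-fold higher (log2 difference 0.33 ± 0.05, SE, limma adjusted p = 0.00448), again with no overlap.

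The other 5 measured genes of the complex did not pass. Eif4g2, a scaffold without the eIF4E-binding site that serves cap-independent initiation, differed by 0.13 (95% interval 0.02 to 0.24, adjusted p = 0.129). Eif4e2, a cap-binding relative that represses some mRNAs, differed by 0.16 (adjusted p = 0.223). The helicase cofactors Eif4b and Eif4h differed by -0.03 (95% interval -0.11 to 0.05) and 0.01 (-0.16 to 0.18). The oocyte-type cap-binding gene Eif4e1b was near the dim limit, with 4.86, 4.88 and 5.02 in inflamed colon, against 5.02, 5.20, 5.02, 5.04 and 5.02 in controls (adjusted p = 0.159). The scaffold Eif4g1, and the helicase genes Eif4a2 and Eif4a3, whose probe sets are annotated to several genes, were not analysed here.

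Promoters are shown for the called members that carry CACGTG, the E-box bound by Myc and Max. Eif4e and Eif4a1 are known Myc targets, and the part of Myc in their differences was not tested. RefSeq windows of 300 bases around annotated starts (GRCm38.p6) were found for 35 of the 46 members with a role, 14 of them called. The motif, searched on both strands, was in 9 of the 35, or 25.7%, and in 3 of the 14 called, while 8.09% of 27025 genes with such windows held it. The share among the called members was no higher than among all 35. In the lines that follow it is in capitals. The Eif4e line is the downstream of 2 annotated starts, and the window of the other start has no match.
Eif4e, chr3:138527018-138527317, + strand: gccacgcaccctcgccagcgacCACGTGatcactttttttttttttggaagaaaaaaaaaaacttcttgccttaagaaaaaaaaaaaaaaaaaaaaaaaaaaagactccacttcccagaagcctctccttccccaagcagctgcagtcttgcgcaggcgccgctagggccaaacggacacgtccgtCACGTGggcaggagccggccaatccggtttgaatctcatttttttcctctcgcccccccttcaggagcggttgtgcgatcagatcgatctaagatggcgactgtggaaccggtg
Eif4a1, chr11:69672374-69672673, - strand: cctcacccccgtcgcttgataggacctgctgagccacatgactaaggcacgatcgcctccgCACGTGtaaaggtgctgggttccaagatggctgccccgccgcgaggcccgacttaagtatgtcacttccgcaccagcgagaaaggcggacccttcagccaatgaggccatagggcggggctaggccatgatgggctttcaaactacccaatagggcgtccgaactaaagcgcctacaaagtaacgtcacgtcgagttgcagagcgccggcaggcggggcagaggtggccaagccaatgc
Eif3a, chr19:60790644-60790943, - strand: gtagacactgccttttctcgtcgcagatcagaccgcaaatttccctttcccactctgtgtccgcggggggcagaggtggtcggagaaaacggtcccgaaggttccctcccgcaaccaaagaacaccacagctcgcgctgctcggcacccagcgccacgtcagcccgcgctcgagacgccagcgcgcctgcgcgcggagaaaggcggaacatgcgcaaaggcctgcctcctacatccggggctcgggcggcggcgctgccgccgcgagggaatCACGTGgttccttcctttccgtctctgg
The 2 matches in Eif4e and the 1 in Eif4a1 lie upstream of the start, and the 1 in Eif3a just after it. The other 6 members with a match, Eif1b, Eif3f, Eif3k, Eif4h, Eif5a and Eif5a2, did not pass the test. A match describes the letters of the window and shows no binding.

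The other motifs were counted in the same 35 windows. CCGGAAGT, an extended ETS core, was in 8 of them (22.9%) and in 4.31% of all genes, and of the called members only Eif3d held it. The core of interferon-stimulated response elements was in 3 (8.57%, against 3.99% of all genes), namely Eif2ak2, Eif2s3x and Eif3a. The C/EBP-ATF element TGATGNAA was in 1 member, Eif2s3x, and in 4.51% of all genes. The NRF1 core was in 1, Eif3k, and the cAMP response element TGACGTCA in none, against 1.07% and 2.03% of all genes. Both strands were searched for each motif.

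**Figure D2:**
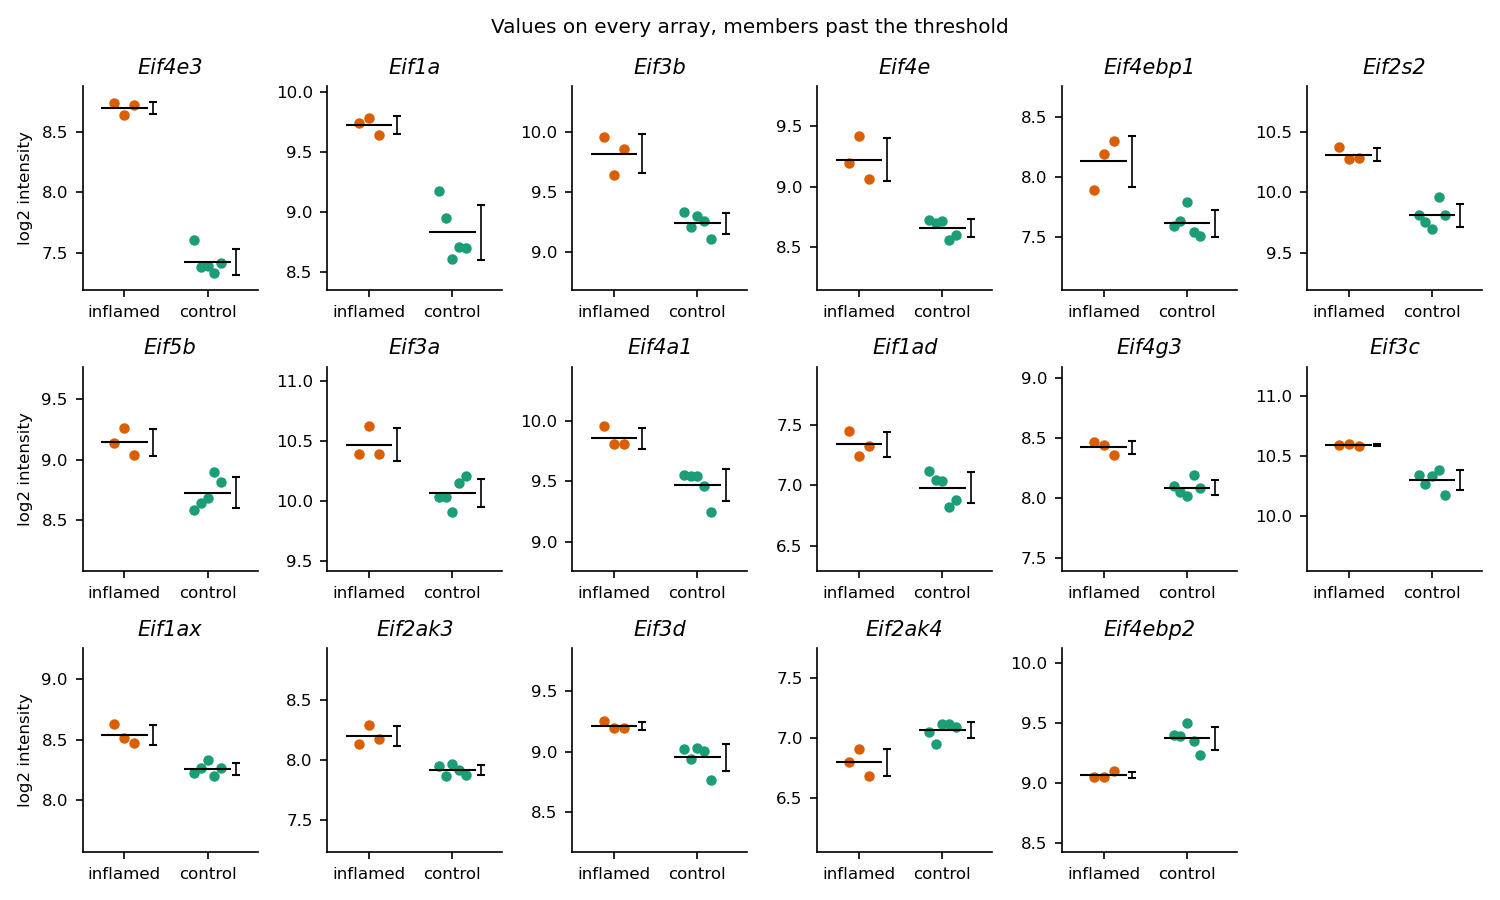
Log2 intensity on every array (vertical axes, each spanning the same range) of the 17 called members that have a role, with inflamed mice on the left and control mice on the right of each panel. Points are mice, horizontal lines group means and bars 1 SD. In all 17 panels the 3 inflamed values lie apart from the 5 control values, below them in Eif2ak4 and Eif4ebp2 and above them in the others.

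Of the 3 measured inhibitors of eIF4E, 1 was higher and 1 lower in inflamed colon. Eif4ebp1 had 7.89, 8.19 and 8.30 in inflamed colon, against 7.59, 7.63, 7.79, 7.54 and 7.51 in controls, a 1.43-fold higher level (log2 difference 0.51 ± 0.10, SE, limma adjusted p = 0.0181). Inflamed mouse 1 was nearest to the controls, but the groups did not overlap. Without inflamed mouse 2 the adjusted p was 0.0517. Eif4ebp2, the second 4E-BP, fell: it had 9.05, 9.05 and 9.10 in inflamed colon, against 9.40, 9.39, 9.50, 9.35 and 9.23 in controls. The log2 difference was -0.31 ± 0.06 (SE, limma adjusted p = 0.0134), a level 1.24-fold higher in controls, and its adjusted p without inflamed mouse 1 was 0.0520. Both genes are also known to be controlled by phosphorylation, which an RNA array does not see. Eif4enif1, which carries eIF4E into the nucleus and to P-bodies, differed by 0.10 (adjusted p = 0.241), and Eif4ebp3 was not analysed here.

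In the eIF3 scaffold, which holds the small subunit, the initiator complex and eIF4G together, 4 of 12 measured subunits were higher and none lower. Eif3b, a subunit that budding yeast also has, had 9.96, 9.64 and 9.86 in inflamed colon, against 9.33, 9.21, 9.30, 9.26 and 9.11 in controls (1.49-fold, log2 difference 0.58 ± 0.08, SE, limma adjusted p = 0.00447). Eif3a, the largest subunit, had 10.39, 10.63 and 10.39 in inflamed colon, against 10.04, 10.03, 9.91, 10.15 and 10.21 in controls (1.32-fold, log2 difference 0.40 ± 0.08, SE, limma adjusted p = 0.0215, or 0.0542 without control mouse 2). Neither gene's groups overlapped.

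Eif3c, a subunit that contacts eIF1 and eIF5, had 10.59, 10.60 and 10.58 in inflamed colon, against 10.34, 10.26, 10.33, 10.38 and 10.18 in controls. The 3 inflamed mice were nearly equal, and the difference of 0.29 ± 0.05 (SE, 1.22-fold) had a limma adjusted p of 0.00844. Eif3d, a subunit that can bind the cap of certain mRNAs, had 9.25, 9.19 and 9.20 in inflamed colon, against 9.02, 8.93, 9.03, 9.003 and 8.77 in controls. Its difference of 0.26 ± 0.06 (SE, 1.20-fold, limma adjusted p = 0.0355) was the least firm of the calls in this complex, since the adjusted p was above 0.05 in 6 of 8 fits that left out 1 mouse, 0.0509 to 0.119 in those 6. It was also lost, at 0.0700, with a term for the sex pattern described below. A second probe set of Eif3d, under the dim limit on every array, differed by -0.04.

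The remaining 8 eIF3 subunits had differences between -0.04 (Eif3f) and 0.36 (Eif3l). Eif3l, a subunit that budding yeast lacks, had 9.02, 9.18 and 8.89 in inflamed colon, against 8.83, 8.72, 8.84, 8.53 and 8.42 in controls. Its groups stood apart, but control mice varied by 0.19 (SD) and the adjusted p was 0.0905. The subunits Eif3e, Eif3h, Eif3k and Eif3m, which budding yeast also lacks, differed by 0.15, 0.10, 0.02 and 0.14, the conserved subunit Eif3i by 0.13 and the loosely bound Eif3j2 by 0.05, none past the threshold (adjusted p from 0.195 to 0.776 for these 6). The eIF3 calls therefore covered 3 of the large subunits and Eif3d but not every subunit of the complex. Eif3g and Eif3j1 were not analysed here.

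Among factors for start-site selection 3 of 4 were higher. Eif1a and Eif1ax both encode eIF1A, which with eIF1 holds the small subunit open for scanning. Eif1a had 9.74, 9.78 and 9.64 in inflamed colon, against 9.17, 8.95, 8.61, 8.71 and 8.70 in controls. After Eif4e3 this was the largest difference of any called member, 0.89 ± 0.13 (SE, 1.85-fold, limma adjusted p = 0.00535), with a spread of 0.23 (SD) among control mice. Eif1ax, the X-linked copy, had 8.63, 8.52 and 8.47 in inflamed colon, against 8.22, 8.26, 8.33, 8.20 and 8.26 in controls (1.22-fold, log2 difference 0.28 ± 0.05, SE, limma adjusted p = 0.00781). The probe sets of these related genes may share sequence, which was not tested. Eif1ad, whose protein carries an eIF1A domain and is known from small-subunit assembly, had 7.45, 7.24 and 7.33 in inflamed colon, against 7.12, 7.04, 7.04, 6.82 and 6.88 in controls. Its difference of 0.36 ± 0.08 (SE, 1.28-fold, limma adjusted p = 0.0282) was past the threshold in 3 of 8 fits without 1 mouse, and the adjusted p was 0.0518 to 0.100 in the others. Eif1b, a copy of eIF1, differed by 0.03 (95% interval -0.23 to 0.29). Eif1 and Eif5 were not analysed here.

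Of the genes for carriers of the initiator tRNA, 1 of 5 was higher. Eif2s2, the beta subunit of eIF2, had 10.38, 10.27 and 10.29 in inflamed colon, against 9.82, 9.75, 9.69, 9.96 and 9.81 in controls. It was 1.42-fold higher (log2 difference 0.51 ± 0.06, SE, limma adjusted p = 0.00258), and no array of one group reached the other. Eif2a, an alternative carrier despite its symbol, had 7.78, 8.08 and 7.88 in inflamed colon, against 8.04, 8.04, 7.98, 8.17 and 8.07 in controls (log2 difference -0.14, adjusted p = 0.240), and the groups overlapped. Eif2d, which can also deliver the initiator tRNA, differed by 0.03 (adjusted p = 0.661). The alpha subunit gene Eif2s1, the one that the stress kinases target, was not analysed here.

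The gamma subunit, which binds GTP and the tRNA, has an X-linked gene, Eif2s3x, and in the mouse a Y-linked one, Eif2s3y. Eif2s3y had 7.46, 7.68 and 3.84 in inflamed colon, against 7.34, 6.97, 3.70, 3.75 and 3.66 in controls. The high values were on inflamed arrays 1 and 2 and control arrays 1 and 2, where the Y-linked genes Kdm5d and Uty were also high, while Xist, expressed from the inactive X, lay between 10.7 and 11.3 on the other 4 and between 4.11 and 4.53 on these 4. The labels give no sex. Both groups held mice of both patterns, with Y-linked transcripts in 2 of 3 inflamed and 2 of 5 control mice. Eif2s3x had 9.55, 9.75 and 9.92 in inflamed colon, against 9.50, 9.32, 9.67, 9.72 and 9.77 in controls (log2 difference 0.14, 95% interval -0.14 to 0.43, adjusted p = 0.473). Within each pattern its inflamed values lay above its control values, and within each group the Xist-positive mice were highest. Eif1ax did not follow the pattern. With the pattern as a term in the fit, 17 of the 19 calls held, and Eif3d and Eif2ak4 did not (adjusted p = 0.0700 and 0.0551). On the 4 arrays with Y-linked transcripts alone, all 19 kept their sign.

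**Figure D3:**
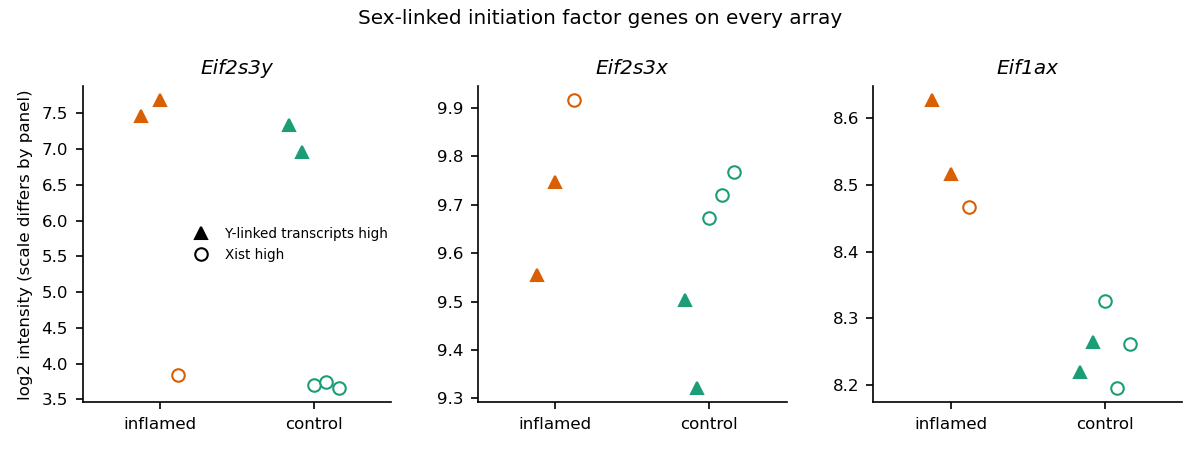
Log2 intensity (vertical axes, scale differing by panel) of the 3 sex-linked members on every array, inflamed left and control right. Filled triangles are arrays with high Y-linked transcripts and open circles arrays with high Xist. Eif2s3y separates by pattern in both groups, at 6.97 to 7.68 and 3.66 to 3.84, while Eif1ax separates by group.

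None of the 5 subunit genes of eIF2B, the exchange factor that recharges eIF2, passed the test. Eif2b3, of the catalytic part, had 6.77, 6.97 and 6.56 in inflamed colon, against 6.46, 6.43, 6.47, 6.49 and 6.49 in controls. Its inflamed values stood above the controls but spread by 0.20 (SD), and the difference of 0.30 ± 0.08 (SE) had a limma adjusted p of 0.0545, the closest of the members that missed the threshold. Eif2b5, the catalytic subunit, had 7.96, 7.76 and 7.97 in inflamed colon, against 7.70, 7.60, 7.79, 7.60 and 7.48 in controls (log2 difference 0.27 ± 0.08, SE, adjusted p = 0.0712). The groups of Eif2b5 overlapped. Both genes passed the threshold with a dim filter and with array weights, Eif2b3 also with quantile normalization and without inflamed mouse 3, and Eif2b5 also with median centring and without inflamed mouse 2. The regulatory subunits Eif2b1, Eif2b2 and Eif2b4 differed by 0.04, 0.13 and 0.02.

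Of the 4 kinases of eIF2 alpha, 1 was higher and 1 lower in inflamed colon. Eif2ak3 (PERK), the kinase of the endoplasmic reticulum that senses unfolded proteins, had 8.13, 8.29 and 8.17 in inflamed colon, against 7.94, 7.87, 7.96, 7.91 and 7.88 in controls. It was 1.22-fold higher (log2 difference 0.28 ± 0.04, SE, limma adjusted p = 0.00701) and its groups did not overlap. Eif2ak4 (GCN2), which senses uncharged tRNA, had 6.80, 6.91 and 6.68 in inflamed colon, against 7.05, 6.95, 7.11, 7.11 and 7.09 in controls. The log2 difference of -0.27 ± 0.06 (SE, limma adjusted p = 0.0272) is a level 1.20-fold higher in controls. That call held in 2 of 8 fits without 1 mouse, with adjusted p of 0.0563 to 0.0836 in the other 6, and it was lost when each array was centred on its median.

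Eif2ak2 (PKR), the interferon-induced sensor of double-stranded RNA, had 9.19, 9.28 and 9.25 in inflamed colon, against 9.40, 9.21, 9.18, 9.57 and 9.23 in controls. The groups overlapped, and the difference of -0.08 had a 95% interval of -0.29 to 0.14 (adjusted p = 0.603). Eif2ak1 (HRI), the heme-regulated kinase, had 8.64, 8.92 and 8.68 in inflamed colon, against 8.90 in control mouse 1 and 8.75 in each of the other 4 control mice. The difference was -0.04 (95% interval -0.21 to 0.13, adjusted p = 0.758). Equal values such as these recur in the deposited table: 39.7% of all genes and 12 of the 55 members had the same value on at least 3 arrays, but none of the 19 called members did. A spread estimated from equal values is too small, and the sources used here do not say what made them equal.

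At the last step eIF5B joins the large subunit. Eif5b had 9.14, 9.26 and 9.04 in inflamed colon, against 8.58, 8.64, 8.68, 8.89 and 8.81 in controls, a 1.34-fold higher level (log2 difference 0.42 ± 0.08, SE, limma adjusted p = 0.0180). The groups did not overlap, and without inflamed mouse 1 the adjusted p was 0.0605. Eif5a, the hypusine-carrying factor now known mainly for elongation, had 9.89, 9.61 and 9.83 in inflamed colon, against 9.58, 9.61, 9.53, 9.29 and 9.13 in controls. Inflamed mouse 2 met the highest control, and the difference of 0.35 (95% interval 0.05 to 0.65) had an adjusted p of 0.122. Eif5a2, its low-level copy, had 5.33, 5.26 and 5.29 in inflamed colon, against 5.28 in control mouse 1 and 5.29 in each of the others, a difference of 0.01 (95% interval -0.05 to 0.06). Eif6, which keeps the subunits apart and works in large-subunit assembly, had 9.84, 9.63 and 9.81 in inflamed colon, against 9.63, 9.61, 9.54, 9.55 and 9.33 in controls (log2 difference 0.23, 95% interval 0.04 to 0.42, adjusted p = 0.111).

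Of the 9 members without a role, 2 were higher. The pseudogene Eif4a-ps4 had 11.33, 11.28 and 11.29 in inflamed colon, against 10.90, 10.93, 10.89, 10.76 and 10.50 in controls (log2 difference 0.51 ± 0.10, SE, limma adjusted p = 0.0160). Eif4a3l2, a copy related to Eif4a3, had 6.32, 6.24 and 6.40 in inflamed colon, against 6.06, 6.03, 6.07, 6.08 and 6.18 in controls (log2 difference 0.24 ± 0.05, SE, limma adjusted p = 0.0173). Without inflamed mouse 1 both calls were lost, at 0.0611 and 0.0593. Probes for such copies can pick up RNA of the parent genes, so their source is uncertain. On every control array and on inflamed array 2, Eif4a3l2 lay below the 75th percentile of the negative control probe sets. That percentile was 6.13 to 6.33 by array. The remaining 7, which include Eif5al3-ps (0.47, adjusted p = 0.0714) and Eif2c5, did not pass. Eif2c5, under the dim limit on every array, had 3.52, 3.46 and 3.66 in inflamed colon, against 3.59, 3.52, 3.52, 3.68 and 3.49 in controls. The least bright members on the array beside Eif2c5 were Eif4e1b and Eif5a2, and the brightest Eif4a-ps4, Eif1-ps1 and Eif3h. Probe sets differ in how strongly they bind, so these levels give no order of RNA abundance. Eif1-ps1 had 10.97, 11.08 and 10.90 in inflamed colon, against 10.97, 10.85, 11.15, 10.97 and 10.87 in controls. The eIF3 subunit gene Eif3h had 10.86, 10.97 and 10.89 in inflamed colon, against 10.72, 10.71, 10.97, 10.79 and 10.86 in controls. In both the groups overlapped.

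Across mice, the mean over the 45 members with a role other than Eif2s3y was 8.68, 8.70 and 8.65 in inflamed colon, against 8.49, 8.46, 8.51, 8.48 and 8.42 in controls. The means were close within each group. Of the 15 called members with a role that were higher, inflamed mouse 1 gave the highest inflamed value for 8, mouse 2 for 6 and mouse 3 for 1. Inflamed mouse 3 had the highest neutrophil marker mean, 8.09, and inflamed mouse 1 the highest T cell marker mean, 6.74. Mean values by role, inflamed minus control, were 0.39 for start-site selection, 0.30 for cap binding, 0.25 for joining with eIF5A and eIF6, 0.20 for eIF3, 0.15 for eIF2B, 0.10 for the inhibitors of eIF4E and -0.02 for the kinases. The mean of the initiator tRNA carriers is set by sex through Eif2s3y and is not used.

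The calls did not all stand equally firm. In every one of the 8 fits that left out 1 mouse, 9 of the 19 were called, namely Eif4e3, Eif2s2, Eif3b, Eif4g3, Eif1a, Eif4e, Eif2ak3, Eif1ax and Eif3c. Without inflamed mouse 1, 11 members were higher and none lower at an adjusted p under 0.05.

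Of 24 measured partners of the factors outside the Eif symbols, 4 were higher and 1 lower. That is 20.8% called, near the 19.5% of genes above the dim limit, where all 24 lay. The shares of all genes, 13.1% called and 8.08% higher, or 19.5% and 12% above the dim limit, apply to the lists below too. Pdcd4, which holds eIF4A away from eIF4G, had 9.29, 10.25 and 9.11 in inflamed colon, against 10.94, 10.97, 10.71, 11.02 and 11.38 in controls. This was the largest change of any gene on that list (log2 difference -1.46 ± 0.27, SE, fold 0.364, limma adjusted p = 0.0136), although inflamed mouse 2 lay well above the other inflamed mice and the highest adjusted p on leaving out 1 mouse was 0.0572. Abce1, which splits ribosomes for reuse, was higher by 0.67 ± 0.16 (SE, limma adjusted p = 0.0328, up to 0.0788 without 1 mouse), and Bzw2, an eIF5 mimic, by 0.51 ± 0.07 (adjusted p = 0.00482).

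Of 12 elongation and release factors 4 were higher, and those with the largest change were Eef1e1, a scaffold of the synthetase complex (0.77 ± 0.10, SE, limma adjusted p = 0.0036), the release factor Etf1 (0.50 ± 0.08, adjusted p = 0.00597) and its partner Gspt1 (0.40 ± 0.06, adjusted p = 0.00569). Cytosolic aminoacyl-tRNA synthetases, which charge tRNAs, and their scaffold Aimp1 were higher in 14 of 20 with a median of 0.44. Wars, the interferon-induced tryptophan enzyme, was 2.92-fold higher (log2 difference 1.54 ± 0.15, SE, limma adjusted p = 0.0012), Rars 1.96-fold (adjusted p = 0.00119) and Nars 1.74-fold (adjusted p = 0.000357).

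Genes of Myc and ribosome biogenesis were higher in 13 of 24, none lower, with a median of 0.40. Myc itself had 8.33, 7.85 and 8.06 in inflamed colon, against 7.59, 7.60, 7.56, 7.45 and 7.61 in controls (1.43-fold, log2 difference 0.52 ± 0.10, SE, limma adjusted p = 0.0161). Its groups did not overlap. The nucleolar proteins Wdr43, Nop58 and Ddx21 were higher by 0.75, 0.73 and 0.62 (adjusted p = 0.00229, 0.00669 and 0.00208).

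Targets of the integrated stress response, the program that follows phosphorylation of eIF2 alpha, went both ways, with 11 of 25 higher and 4 lower. The cystine transporter gene Slc7a11 was 9.68-fold higher (log2 difference 3.28 ± 0.14, SE, limma adjusted p = 7.24e-05) and Asns, for asparagine synthetase, 2.19-fold higher (adjusted p = 0.00313). The control mean of Slc7a11, 4.78, lay under the dim limit of 4.88, so the size of its fold is uncertain. Cth, for cystathionine gamma-lyase, was lower by 1.33 on the log2 scale (fold 0.399, adjusted p = 0.00768). Atf4, the transcription factor at the centre of the program and one controlled mainly by translation, had 8.71, 8.58 and 8.77 in inflamed colon, against 8.58, 8.48, 8.58, 8.36 and 8.34 in controls (log2 difference 0.21, adjusted p = 0.106). Ddit3 (CHOP), a target known for promoting cell death, fell: it had 7.58, 7.50 and 7.35 in inflamed colon, against 7.75, 7.62, 7.88, 7.80 and 7.74 in controls (log2 difference -0.28 ± 0.07, SE, limma adjusted p = 0.0425, up to 0.105 without 1 mouse). Slc7a11, Cth and several other list members are also under other controls, so the list is not specific to eIF2 alpha.

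The mTORC1 pathway, which acts on the 4E-BPs, had 3 of 27 genes higher and 2 lower, with a median of -0.06. That is 18.5% called and 11.1% higher, near the 19.5% and 12% of genes above the dim limit. Those with the largest change were Deptor, an inhibitor of mTOR (-0.96, fold 0.513, limma adjusted p = 0.0402, up to 0.131 without 1 mouse), Ddit4, a stress-induced brake on mTORC1 that is also on the stress response list (0.88, adjusted p = 0.00829), and Rraga, a Rag GTPase that brings mTORC1 to the lysosome (0.40, adjusted p = 0.0384, up to 0.0994 without 1 mouse). The Mtor gene had 7.89, 7.87 and 7.86 in inflamed colon, against 7.88, 7.87, 7.90, 7.87 and 7.83 in controls (log2 difference 0.01, adjusted p = 0.915).

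**Figure D4:**
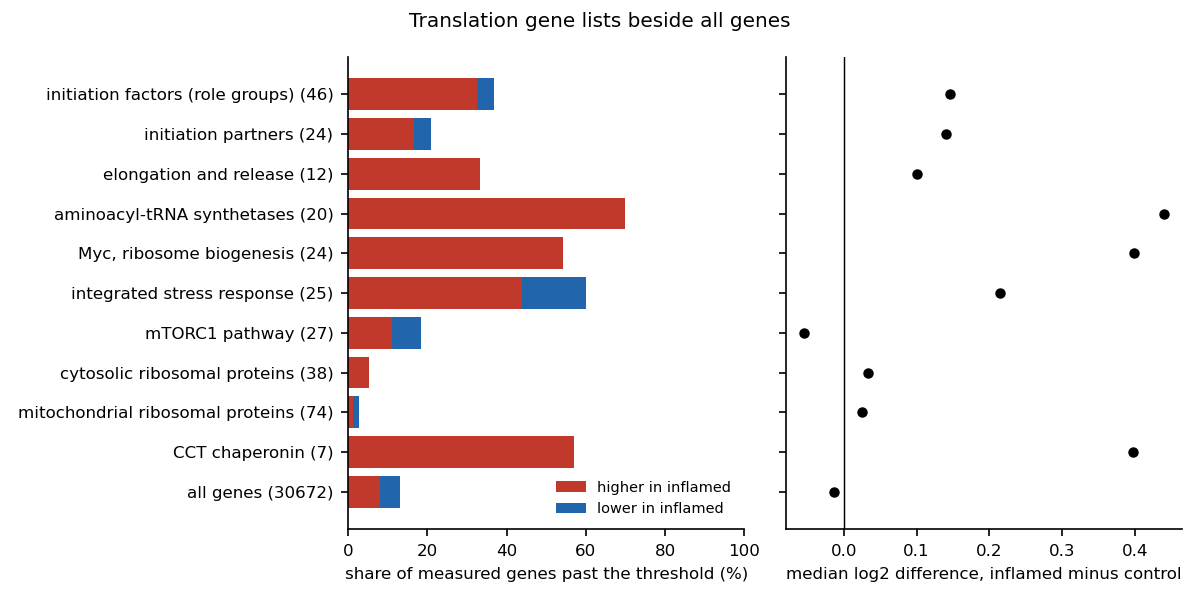
Left, share of measured genes (percent) that were higher or lower in inflamed colon at an adjusted p under 0.05, by list, with the number measured in brackets. Right, median log2 difference of each list, inflamed minus control. Initiation factors with a role (15 higher and 2 lower of 46) lie between the synthetases (14 of 20 higher) and the cytosolic ribosomal proteins (2 of 38 higher), and all genes are at the bottom.

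Set beside other families of the translation machinery, initiation factors with a role had 15 higher and 2 lower of 46 and a median of 0.15. Cytosolic ribosomal protein genes had 2 of 38 higher with a median of 0.03, and mitochondrial ribosomal protein genes 1 higher and 1 lower of 74 with a median of 0.02. The 38 cytosolic genes are not the whole family, since Rps6 was not among the named genes. In each group 2 of the 38 lay under the dim limit. The CCT chaperonin, which folds actin and tubulin, had 4 of 7 subunits higher with a median of 0.40. These families were picked with earlier results known, and the differences between them were not tested.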

How the data were processed

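RNA from colon tissue was measured on 8 arrays, 3 inflamed and 5 control, grouped by the treatment in the labels. The deposited values are log2 intensities, and the submitters' processing notes name RMA and Affymetrix Expression Console as the authors' tools. RMA corrects background, normalizes between arrays and summarizes probes, and it compresses dim signals, so folds of dim genes are understated. The sources used here name no version, setting, array model or genome build, and the values' range showed their log2 scale. The values were used with no further normalization.

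Of 72688 probe sets, 65956 were transcript clusters, and control probe sets were left out of the tests. Symbols came from the platform annotation, updated through RefSeq (GRCm38.p6), which gave 30672 genes. The 1525 probe sets with several genes were left unnamed, 5 of them with initiation factor symbols. The brightest probe set stood for each of the 438 genes that had more than 1, and Eif3d was the only such member.

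Inflamed minus control was fitted over all genes with lmFit and eBayes (limma 3.58.1, R 4.3.3), 2-sided, with Benjamini-Hochberg adjustment over 30672 genes and a threshold of 0.05. "Called" means past that threshold. The procedure was tested on simulated data. Members, related lists and compared families were chosen with earlier results of these data known. Arrays in full are given for called members, for a fixed set of key factors, and for the 3 dimmest and 3 brightest. Those of Eif2a, Eif2b3, Eif2b5 and Eif3l are given outside this rule. From each related list the text names the 3 called genes with the largest change, plus Atf4, Ddit3, Myc and Pdcd4. Mtor was added after its values were seen. Alternatives were median centring, quantile normalization, sex pattern or replicate number as a block, a dim filter, a floor, the mean over probe sets, a trended robust variance, array weights, and each array left out. The fit on arrays with Y-linked transcripts only, and the count over members with a role, were added after seeing the data. The number of arrays limits precision.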

Additional observations from a re-analysis of the deposited data

Results flagged for a closer look

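In 11 members, 1 control mouse stood apart from the other 4, by a gap above Dixon's 95% critical value. Chance marks about 1 in 20 such groups, and 55 members were looked at. Where the other values were equal or nearly so, any departure is marked. Control mouse 5 was low for Eif2b1 (7.80, the other 4 at 7.94), Eif2d (6.93, the others 7.04 to 7.05) and Eif3m (8.97, the others 9.13 to 9.17), and it was high for Eif4a3l2 (6.18, the others 6.03 to 6.08) and Eif4b (9.80, the others 9.69 to 9.71). Control mouse 1 was high for Eif2ak1 (8.90, the others at 8.75) and low for Eif5a2 (5.28, the others at 5.29). Control mouse 3 was high for Eif3f (8.58, the others at 8.52) and low for the pseudogene Eif3s6-ps1 (8.59, the others 8.74 to 8.80). Control mouse 2 was high for Eif4e1b (5.20, the others 5.02 to 5.04) and low for Eif4enif1 (7.74, the others 7.82 to 7.84). Only Eif4a3l2 among these passed the test between groups. The inflamed group, with 3 mice, is too small for this check.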

How the results depend on the processing

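All 19 called members kept their sign under each alternative run, and differed in whether they passed. The sample titles do not say whether replicate numbers pair the mice. Same-numbered correlations across genes were -0.32, -0.06 and 0.08, and those of other numbers -0.24 to 0.37. With so few arrays these cannot decide it, and same-numbered mice had the same sex pattern. With the replicate block no call was left: 0 of all genes, 0 members higher, 0 lower, and 0 higher and 0 lower on the related lists, in limma with few residual degrees of freedom, where 4911 genes and 19 members had an unadjusted p under 0.05. On the 4 arrays with Y-linked transcripts, a fit chosen after seeing the data, these counts were likewise 0, with 4591 genes and 21 members at an unadjusted p under 0.05. Median centring and the sex pattern as a block each left 1 member lower, Eif4ebp2, losing Eif2ak4. Leaving out 1 mouse gave 2507 to 4563 genes called, 11 to 16 members higher and 0 to 3 lower, and 2 to 8 genes lower on the related lists. With the mean over probe sets Eif3d was lost. Members not called otherwise passed, all higher except Eif2a, under array weights (Eif2a, Eif2b3, Eif2b5, Eif5al3-ps and Eif6), the dim filter (Eif2b3, Eif2b5 and Eif5al3-ps), median centring (Eif2b5 and Eif5al3-ps), quantile normalization (Eif2b3), without inflamed mouse 2 (Eif2a and Eif2b5) and without inflamed mouse 3 (Eif2b3). No call was lost under quantile normalization, a dim filter, a floor, array weights or trended robust variances. Signs turned only in members that were not called, and the cause was not tested. Median centring gave Eif1-ps3 0.028, Eif2c5 0.020, Eif4a3l1 0.0040 and Eif4b 0.0069. Quantile normalization gave Eif1-ps1 -0.0048 and Eif4h -0.032, the replicate block Eif1-ps1 -0.0057 and Eif4h -0.014, array weights Eif1-ps1 -0.0063, Eif1b -0.021 and Eif3f 0.038, and the arrays with Y-linked transcripts Eif1-ps3 0.019. Leaving out 1 mouse gave ranges across 0 for Eif1-ps1 (-0.024 to 0.069), Eif1-ps3 (-0.033 to 0.010), Eif1b (-0.055 to 0.10), Eif2ak1 (-0.13 to 0.016), Eif2b4 (-0.019 to 0.061), Eif2c5 (-0.074 to 0.027), Eif3f (-0.10 to 0.037), Eif3k (-0.0023 to 0.046), Eif3m (-0.026 to 0.24), Eif4a3l1 (-0.053 to 0.0044), Eif4h (-0.061 to 0.090) and Eif5a2 (-0.012 to 0.023). Dim signals and the number of arrays limit what can be seen.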
